A study of Danio rerio with 16 samples.

Results

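tmem88a (ENSDARG00000056920) and tmem88b (ENSDARG00000069388) are the zebrafish copies of TMEM88, and both were followed here by gene identifier, as 2 of the 27257 genes listed for either stage. TMEM88 is a membrane protein whose C-terminal end binds the PDZ domain of Dishevelled. Dishevelled carries the signal from Frizzled and LRP receptors to the complex that degrades β-catenin, and TMEM88 dampens this canonical Wnt pathway. In early embryos canonical Wnt signalling acts in different directions on the heart lineage at different times, and Tmem88a is known in zebrafish from the lateral plate mesoderm that gives rise to heart and blood. The study title asks about Tmem88a, the GATA factors and canonical WNT signalling in cardiomyocyte progenitors.

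Messenger RNA was sequenced from whole zebrafish embryos, 40 pooled embryos per library, with 2 libraries in each of 8 groups. At each of the 2 stages, 6-somites and bud, the groups were Gata5/6 morphants (called double morphants here), Gata5 morphants, Gata6 morphants and WT. Morphants are embryos that received a morpholino, a synthetic antisense oligomer. It stops an mRNA from being translated or spliced, so that the mRNA of its target need not be lower. Doses, clutches, injection days, the kind of control injection if any, and protein levels are not given, and replicates are not stated to be separate clutches. The p-values therefore measure the spread between these samples, which may be partly technical.

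Levels are in RPKM, the reads of a gene divided by its length in kilobases and by the library's reads in M. All log2 changes are of RPKM + 1 and carry their SE. The library totals behind RPKM were 19.7 to 30.8 M reads. mRNA of gata5, the one target analysed here, was at 117 to 130 RPKM in double morphants, 91.0 to 97.0 RPKM in Gata5 morphants, 44.2 to 46.0 RPKM in Gata6 morphants and 27.0 to 32.3 RPKM in WT at 6-somites. At bud it was at 158 to 160 RPKM in double morphants, 106 to 114 RPKM in Gata5 morphants, 58.6 to 59.1 RPKM in Gata6 morphants and 46.3 to 52.9 RPKM in WT. The morphants labelled with Gata5 thus had more gata5 mRNA than WT, and these values do not measure knockdown. A pair of bud libraries stood apart in mdm2, a feedback inhibitor of p53. It was at 8.31 RPKM in replicate 1 of the double morphants and at 16.1 RPKM in replicate 1 of the Gata6 morphants. In the other bud libraries it was at 2.41 to 5.18 RPKM. Bud results of both genes, and changes of other genes named at bud, are given below with and without these 2 libraries, called the libraries with high mdm2. Replicate 2 of the Gata6 morphants at bud, with mdm2 at 5.18 RPKM, was kept. Its p53 response genes, listed below, summed to 324 RPKM, against 177 and 215 RPKM in WT at bud. Leaving out the libraries with high mdm2 thus does not take the p53 response out of the bud groups. At 6-somites mdm2 was at 5.43 to 9.05 RPKM in the morphant libraries and 3.37 to 3.62 RPKM in WT. All libraries of that stage were kept.

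Both genes were weakly expressed in the whole embryo. Over all 16 libraries tmem88a averaged 2.85 RPKM and tmem88b 3.25 RPKM, which placed them at the 34.1th and 37.6th percentile of the 14751 genes tested, whose median was 5.22 RPKM. The reads behind each value ranged from 37 to 464 for tmem88a and from 164 to 476 for tmem88b. The relative counting error over both genes ranged from 4.58% to 16.4%. In whole-embryo RNA, fewer cells that express a gene and less RNA per cell cannot be told apart.

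**Figure D1:**
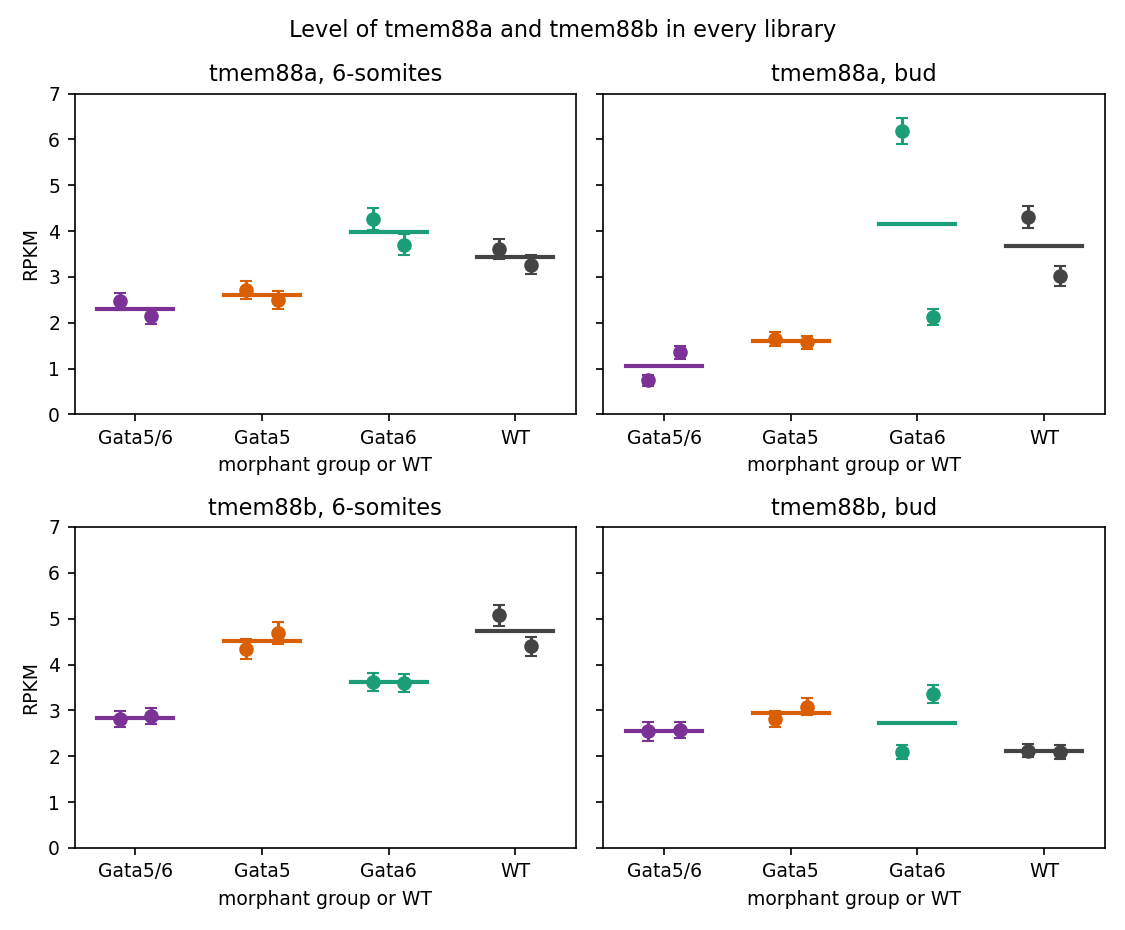
Level of tmem88a (upper row) and tmem88b (lower row) in RPKM at 6-somites (left) and bud (right), with 1 point per library, 1 SD of counting error on each point and a bar at the group mean. tmem88a is at 2.72 RPKM or less in all libraries with Gata5 morpholino at 6-somites and at 1.65 RPKM or less at bud, below every library without it. tmem88b at 6-somites is at 3.62 RPKM or less in all libraries with Gata6 morpholino, below every library without it.

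At bud, tmem88a was low in the embryos that had received Gata5 morpholino, alone or together with Gata6 morpholino. The double morphant libraries had 0.745 and 1.36 RPKM (37 and 93 reads). The Gata5 morphant libraries had 1.65 and 1.57 RPKM, the Gata6 morphant libraries 6.19 and 2.12 RPKM, and the WT libraries 4.31 and 3.02 RPKM. All 4 libraries with Gata5 morpholino were below all 4 without it, and the Gata6 morphant pair spanned the WT pair on both sides. Both libraries lay below both WT libraries for 22.8% of all genes in double morphants and for 21.7% in Gata5 morphants. Expressed as group means, double morphants were at 28.7% and Gata5 morphants at 43.9% of the WT level.

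Tested pair by pair with limma over all genes, these differences at bud did not pass the adjusted threshold of 0.05. The double morphant change against WT was -1.19 ± 0.30 (adjusted p = 0.0778; 95% interval -1.84 to -0.54), in a comparison in which limma called 1.59% of the 14751 genes, or 235, and 362 with the replicate number as a block. The Gata5 morphant change was -0.82 ± 0.30 (adjusted p = 0.331, 0.359% of genes called, or 53, and 88 with the block). The Gata6 morphant change was 0.04 ± 0.30 (adjusted p = 0.962; 95% interval -0.61 to 0.69), with 1.63% of genes called, or 241, and 472 with the block. Without the 2 libraries with high mdm2, the double morphant change was -0.97. The Gata5 morphant change, which uses neither library, kept its value of -0.82. Only the values are compared here, and calls in that fit are given in the last section. The Gata6 morphant change without the 2 libraries was -0.56. It then rested on 1 Gata6 morphant library, as replicate 1, the highest tmem88a value of the series, was left out. The pair of Gata6 morphant libraries at bud had an SD of 2.87 RPKM, where counting error alone gives 0.239 RPKM.

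At 6-somites the same order held over a narrower range. tmem88a was at 2.46 and 2.15 RPKM in double morphants, 2.72 and 2.49 RPKM in Gata5 morphants, 4.27 and 3.70 RPKM in Gata6 morphants, and 3.60 and 3.27 RPKM in WT. The 4 libraries with Gata5 morpholino were again below the 4 without it, and both Gata6 morphant libraries were above both WT libraries. Below both WT libraries lay 33.0% of all genes in double morphants and 25.8% in Gata5 morphants, and above them 20.9% in Gata6 morphants. Double morphants averaged 67.2% and Gata5 morphants 75.8% of WT, while Gata6 morphants averaged 116% of WT. No pair of groups at 6-somites passed the threshold: the change against WT was -0.42 ± 0.30 in double morphants (adjusted p = 0.530, 3.80% of genes called), -0.30 ± 0.30 in Gata5 morphants (adjusted p = 0.818, 0.475% called, or 70 genes, and 115 with the block), and 0.17 ± 0.30 in Gata6 morphants (adjusted p = 0.999, 0.339% called). Fitted without the bud libraries, the double morphant change had an adjusted p of 0.0202 with limma. That fit called 2976 genes in this comparison, against 560 with all libraries. Libraries of a group differed less at 6-somites than at bud. The SD of their log2 difference over genes was 0.183 to 0.228 at 6-somites and 0.341 to 0.475 at bud.

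Averaged over both stages, tmem88a fell in double morphants against WT by 0.81 ± 0.21 on the log2 scale (adjusted p = 0.0419), in a contrast of 4 libraries with 4 that called 6.89% of genes. This call was lost when 1 library was left out (adjusted p of 0.105 to 0.138), except for replicate 2 of the double morphants or of WT at bud, and was kept without both libraries with high mdm2 (-0.70, adjusted p = 0.00582). The averaged change was -0.56 ± 0.21 in Gata5 morphants (adjusted p = 0.193, 2.79% of genes called, or 412, and 651 with the block) and 0.10 ± 0.21 in Gata6 morphants (adjusted p = 0.856, 3.32% called).

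The groups were then joined by morpholino, a contrast added after the values were seen: double and Gata5 morphants with Gata5 morpholino against Gata6 morphants and WT without it. At bud, tmem88a ranged from 0.745 to 1.65 RPKM with Gata5 morpholino and from 2.12 to 6.19 RPKM without it. At 6-somites it ranged from 2.15 to 2.72 RPKM with Gata5 morpholino and from 3.27 to 4.27 RPKM without it. The libraries with Gata5 morpholino lay wholly below the others for 3.16% of all genes at bud, for 6.26% at 6-somites and for 1.12% at both stages, tmem88a among them.

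tmem88a fell with Gata5 morpholino at bud by 1.02 ± 0.21 on the log2 scale (adjusted p = 0.0278), where 2.73% of genes were called, or 403, and 727 with the block. At 6-somites its change was -0.44 ± 0.21 (adjusted p = 0.328, unadjusted p = 0.0569, with 2.54% of genes called). Without the 2 libraries with high mdm2 the change was -0.62 at bud. At 6-somites, where no library was left out, the change kept its value of -0.44. Its call in that fit is given in the last section. The call at bud was lost without replicate 1 or 2 of the Gata5 morphants, replicate 1 of the double morphants or replicate 1 of WT (adjusted p of 0.0593 to 0.102). When each stage was fitted by itself, the adjusted p was 0.321 at bud and 0.00565 at 6-somites. Those fits called 3 genes at bud and 2532 at 6-somites, against 403 and 374 with all libraries. Gata6 morpholino gave no such separation for tmem88a, with 0.745 to 6.19 RPKM with it and 1.57 to 4.31 RPKM without it at bud. Its change with Gata6 morpholino was -0.16 ± 0.21 at bud (adjusted p = 0.727, 95% interval -0.62 to 0.30, 3.46% of genes called) and 0.02 ± 0.21 at 6-somites (adjusted p = 0.976, 95% interval -0.44 to 0.48, 4.91% called). Without replicate 1 of the Gata6 morphants the bud value was -0.46 (adjusted p = 0.0412), and without both libraries with high mdm2 it was -0.36 (adjusted p = 0.0891).

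The test of adding Gata6 morpholino to Gata5 morpholino gave tmem88a a log2 change of -0.36 ± 0.30 at bud (double against Gata5 morphants, adjusted p = 0.687, 95% interval -1.01 to 0.29, 0.739% of genes called) and of -0.12 ± 0.30 at 6-somites (adjusted p = 0.882, 3.18% called). The bud value was -0.15 without both libraries with high mdm2 (adjusted p = 0.773). Adding Gata5 morpholino to Gata6 morpholino gave -1.22 ± 0.30 at bud (double against Gata6 morphants, adjusted p = 0.0547, 2.61% called) and -0.59 ± 0.30 at 6-somites (adjusted p = 0.456, 0.590% called, or 87 genes, and 141 with the block). The bud value rests on replicate 1 of the Gata6 morphants: it was -0.41 without both libraries with high mdm2 (adjusted p = 0.194) and -1.83 without replicate 2 (adjusted p = 0.00301). The double morphant change less the 2 single morphant changes added together was -0.40 ± 0.42 at bud (adjusted p = 0.735, 0.0271% called) and -0.29 ± 0.42 at 6-somites (adjusted p = 0.999, 0.0136% called). The bud value had the other sign without both libraries with high mdm2 (0.42, adjusted p = 0.309).

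tmem88b, the paralog, did not share this pattern, and its level moved with stage and, at 6-somites, with Gata6 morpholino. At 6-somites the double morphant libraries had 2.80 and 2.88 RPKM. The Gata5 morphant libraries had 4.33 and 4.68 RPKM, the Gata6 morphant libraries 3.62 and 3.59 RPKM, and the WT libraries 5.07 and 4.40 RPKM. The double morphants were lowest, the Gata6 morphants next, and the Gata5 morphants overlapped WT.

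The double morphants averaged 60.0% of the WT level of tmem88b at 6-somites, Gata6 morphants 76.1% and Gata5 morphants 95.2%. limma called the double morphant change against WT (-0.58 ± 0.14, adjusted p = 0.0467); both double morphant libraries lay below both WT libraries for 33.0% of all genes. The adjusted p was between 0.0518 and 0.0698 under 6 other settings and between 0.122 and 0.329 when any 1 of the 4 libraries was omitted. It was 0.00410 when only 6-somites libraries were fitted, where 2976 genes were called, against 560 with all libraries. The Gata6 morphant change was -0.31 ± 0.14 (adjusted p = 0.531), with both libraries below both WT libraries as for 30.0% of all genes, and the Gata5 morphant change -0.06 ± 0.14 (adjusted p = 0.954, 95% interval -0.36 to 0.25). The double morphant change was -0.52 ± 0.14 against Gata5 morphants (adjusted p = 0.0722) and -0.26 ± 0.14 against Gata6 morphants (adjusted p = 0.499).

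Joined by morpholino, again a contrast added after the values were seen, tmem88b at 6-somites ranged from 2.80 to 3.62 RPKM with Gata6 morpholino and from 4.33 to 5.07 RPKM without it. The libraries with Gata6 morpholino lay wholly below the others for 10.7% of all genes. tmem88b fell with Gata6 morpholino by 0.42 ± 0.10 on the log2 scale (adjusted p = 0.0365), with adjusted p of 0.0644 to 0.160 after omission of any 1 of the 8 libraries. With Gata5 morpholino its change at 6-somites was -0.16 ± 0.10 (adjusted p = 0.484, 95% interval -0.38 to 0.06), with libraries that overlapped.

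At bud, no group mean of tmem88b was below that of WT. It was at 2.54 and 2.57 RPKM in double morphants, 2.82 and 3.08 RPKM in Gata5 morphants, 2.09 and 3.35 RPKM in Gata6 morphants, and 2.12 and 2.10 RPKM in WT. Both double morphant and both Gata5 morphant libraries were above both WT libraries, an arrangement seen for 17.7% of all genes in the double morphants and for 14.2% in the Gata5 morphants. The change against WT was 0.19 ± 0.14 in double morphants (adjusted p = 0.604), 0.34 ± 0.14 in Gata5 morphants (adjusted p = 0.403) and 0.24 ± 0.14 in Gata6 morphants (adjusted p = 0.376), and none passed the threshold. Without both libraries with high mdm2 the Gata6 morphant change was 0.48, the double morphant change 0.20 and the Gata5 morphant change 0.34. The Gata6 morphant change then rested on replicate 2 alone, at 3.35 RPKM, and the double morphant change likewise on replicate 2. Replicate 1 of the Gata6 morphants was the library in which tmem88a was highest and tmem88b lowest.

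With 4 libraries against 4 at bud, the change of tmem88b was 0.15 ± 0.10 with Gata5 morpholino (adjusted p = 0.475) and 0.04 ± 0.10 with Gata6 morpholino (adjusted p = 0.864). Without both libraries with high mdm2 these changes were 0.03 with Gata5 morpholino (adjusted p = 0.844) and 0.17 with Gata6 morpholino (adjusted p = 0.206). For tmem88b the double morphant change less both single morphant changes was -0.39 ± 0.20 at bud (adjusted p = 0.486), or -0.64 without replicate 1 of the Gata6 morphants (adjusted p = 0.0297) and -0.63 without both libraries with high mdm2 (adjusted p = 0.0526). At 6-somites it was -0.21 ± 0.20 (adjusted p = 0.967).

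**Figure D2:**
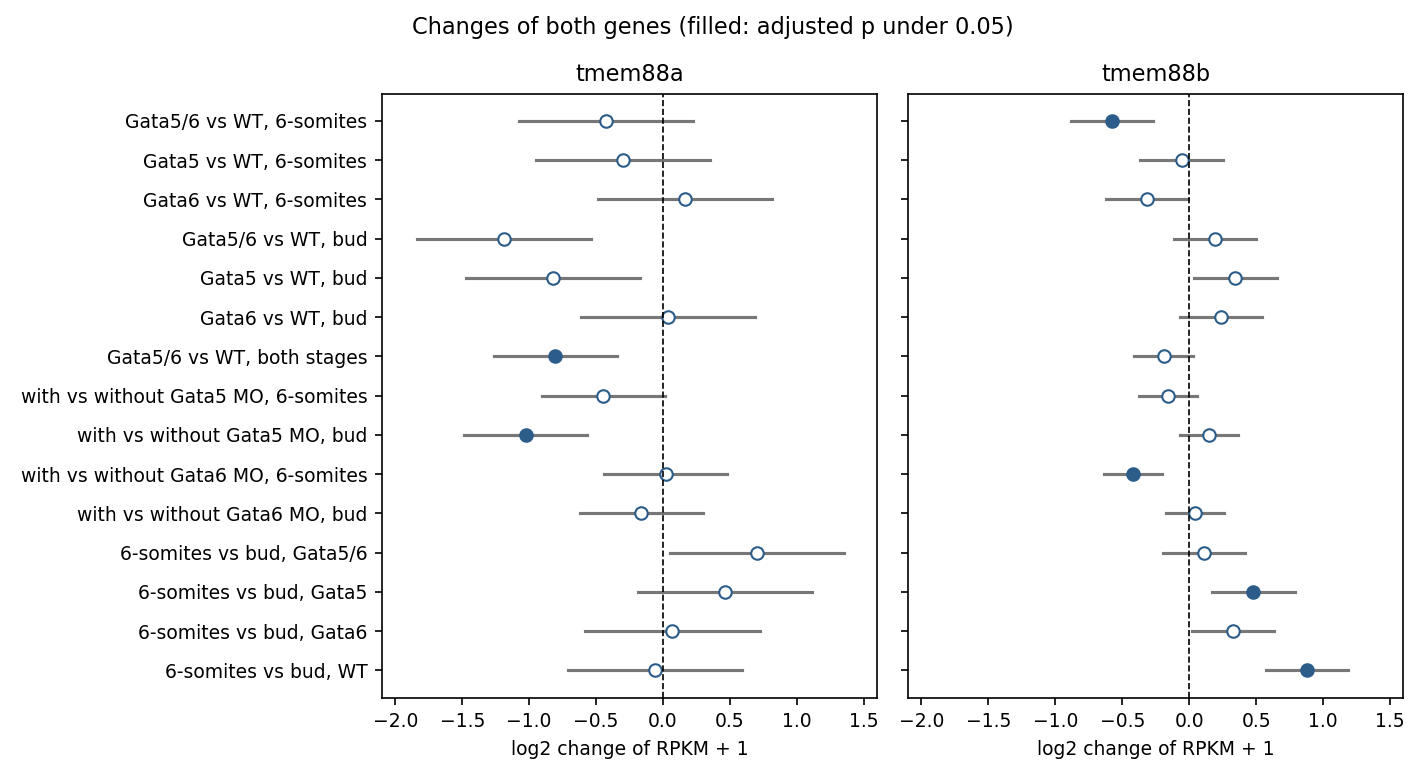
log2 change of RPKM + 1 for tmem88a (left) and tmem88b (right) in 15 comparisons, as points with 95% intervals from limma, filled where the adjusted p was under 0.05. The filled points are double morphants against WT over both stages (-0.81) and with against without Gata5 morpholino at bud (-1.02) for tmem88a. For tmem88b they are double morphants against WT at 6-somites (-0.58), with against without Gata6 morpholino at 6-somites (-0.42), and 6-somites against bud in Gata5 morphants (0.48) and WT (0.88).

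The step from bud to 6-somites was tested in each group. In WT, tmem88b rose at 6-somites to 225% of its bud level, with 5.07 and 4.40 RPKM at 6-somites and 2.12 and 2.10 RPKM at bud (0.88 ± 0.14, adjusted p = 0.000751). WT libraries at 6-somites lay wholly above those at bud for 42.2% of all genes, and 29.9% of genes were called. In Gata5 morphants tmem88b rose at 6-somites to 153% (0.48 ± 0.14, adjusted p = 0.0256, 26.9% called). The same step was 0.33 ± 0.14 in Gata6 morphants (adjusted p = 0.124, 18.5% called) and 0.11 ± 0.14 in double morphants (adjusted p = 0.622, 95% interval -0.20 to 0.42, 21.3% called). The call in Gata5 morphants was lost on omission of any 1 of its 4 libraries (adjusted p of 0.0502 to 0.147). The value in Gata6 morphants was 0.58 without replicate 2 of the bud pair (adjusted p = 0.0139). It was, without both libraries with high mdm2, 0.083 in Gata6 morphants (adjusted p = 0.586) and 0.11 in double morphants (adjusted p = 0.533).

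The difference between these steps was tested on its own. The step of tmem88b from bud to 6-somites less that of WT was -0.77 ± 0.20 in double morphants (adjusted p = 0.243, unadjusted p = 0.00238), -0.40 ± 0.20 in Gata5 morphants (adjusted p = 1) and -0.55 ± 0.20 in Gata6 morphants (adjusted p = 0.508), and none passed the threshold. These tests called 1 gene in double morphants (0.00678%), 0 in Gata5 morphants (0.00%) and 3 in Gata6 morphants (0.0203%) of 14751. An unadjusted p under 0.05 was reached by 1287 genes in double morphants, 456 in Gata5 morphants and 1169 in Gata6 morphants. limma-voom on recovered reads also called 0 genes in Gata5 morphants. Without both libraries with high mdm2 the Gata6 value was -0.80 and the double morphant value -0.78. Each of these values then rested on replicate 2 alone of its morphant group at bud.

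tmem88a did not pass the test of stage in any group. In WT it was at 3.60 and 3.27 RPKM at 6-somites and 4.31 and 3.02 RPKM at bud, a change of -0.06 ± 0.30 (adjusted p = 0.900, 95% interval -0.71 to 0.59). The change from bud to 6-somites was 0.70 ± 0.30 in double morphants (adjusted p = 0.118), 0.47 ± 0.30 in Gata5 morphants (adjusted p = 0.277) and 0.07 ± 0.30 in Gata6 morphants (adjusted p = 0.895). Without replicate 1 of the bud pair the Gata6 value was 0.67 (adjusted p = 0.0257). When both libraries with high mdm2 were omitted, the change was 0.49 in double morphants and 0.67 in Gata6 morphants. In Gata5 morphants, which use neither library, it was 0.47 as before. Both double morphant and both Gata5 morphant libraries were higher at 6-somites than at bud, as were 40.3% and 46.5% of all genes. Set against WT, the step of tmem88a differed by 0.76 ± 0.42 in double morphants (adjusted p = 0.660), 0.53 ± 0.42 in Gata5 morphants (adjusted p = 1) and 0.13 ± 0.42 in Gata6 morphants (adjusted p = 0.939). These differences were 0.55 in double morphants (adjusted p = 0.349) and 0.73 in Gata6 morphants (adjusted p = 0.0736) without both libraries with high mdm2.

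Ordered by mean level, the 4 lowest groups for tmem88a were the 4 with Gata5 morpholino: double morphants at bud (1.05 ± 0.432 RPKM, SD, n = 2), Gata5 morphants at bud (1.61 ± 0.0516 RPKM), double morphants at 6-somites (2.31 ± 0.220 RPKM) and Gata5 morphants at 6-somites (2.60 ± 0.158 RPKM). They were followed by WT at 6-somites (3.43 ± 0.238 RPKM), WT at bud (3.66 ± 0.911 RPKM), Gata6 morphants at 6-somites (3.98 ± 0.401 RPKM) and Gata6 morphants at bud (4.16 ± 2.87 RPKM). Libraries of neighbouring groups overlapped among these last 4, and the other neighbours in the order did not pass a test where one was made.

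For tmem88b the order was WT at bud (2.11 ± 0.0127 RPKM), then double morphants (2.55 ± 0.0205 RPKM) and Gata6 morphants at bud (2.72 ± 0.889 RPKM), double morphants at 6-somites (2.84 ± 0.0516 RPKM) and Gata5 morphants at bud (2.95 ± 0.190 RPKM). The 3 highest groups were Gata6 morphants (3.61 ± 0.0233 RPKM), Gata5 morphants (4.51 ± 0.248 RPKM) and WT (4.74 ± 0.475 RPKM), all at 6-somites. Gata6 morphants at bud overlapped every group at or below Gata5 morphants at bud, and Gata5 morphants overlapped WT at 6-somites.

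Because each library was one pool, the ratio of the 2 genes per length could be taken within it. At 6-somites tmem88a was at 0.878 and 0.748 times the level of tmem88b in double morphants, 0.627 and 0.532 times in Gata5 morphants, 1.18 and 1.03 times in Gata6 morphants, and 0.710 and 0.742 times in WT. At bud the ratio was 0.293 and 0.528 in double morphants, 0.584 and 0.510 in Gata5 morphants, 2.96 and 0.634 in Gata6 morphants, and 2.03 and 1.44 in WT. The ratio was above 1 in both WT libraries at bud and below 1 in both at 6-somites. In replicate 2 of the Gata6 morphants at 6-somites the 2 genes, at 3.70 RPKM for tmem88a and 3.59 RPKM for tmem88b, lay within counting error of each other (SD of 0.224 RPKM for tmem88a and 0.194 RPKM for tmem88b).

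Genes whose levels were most like those of each gene were sought with Pearson's r over the 16 libraries, on log2 values with each stage centred on its own mean, among 11441 genes with a symbol. The libraries share their groups, depth and any library-wide difference, so r is given as a description. For tmem88a the closest were PDE6B (r = 0.915), HAND2 (0.906), APBB1IP (0.904) and SLC35A3 (0.898), where 95% of all genes had r below 0.612, and 2 genes without a symbol ranked above PDE6B. HAND2 is a transcription factor of the heart field and lateral plate mesoderm. In mammals PDE6B is a phosphodiesterase of photoreceptors, APBB1IP an adaptor in integrin activation and SLC35A3 a sugar nucleotide transporter.

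HAND2 at 6-somites had 14.4 and 13.5 RPKM in double morphants, 16.9 and 14.8 RPKM in Gata5 morphants, 20.4 and 19.2 RPKM in Gata6 morphants, and 21.6 and 21.0 RPKM in WT. At bud it had 8.49 and 7.63 RPKM in double morphants, 8.40 and 9.46 RPKM in Gata5 morphants, 19.5 and 8.95 RPKM in Gata6 morphants, and 14.4 and 10.4 RPKM in WT. As for tmem88a, replicate 1 of the Gata6 morphants was the highest bud library, and r was 0.899 without both libraries with high mdm2 (Spearman's rho over all 16 was 0.897). HAND2 itself did not pass the test with against without Gata5 morpholino, at -0.44 ± 0.18 at 6-somites (adjusted p = 0.250) and -0.54 ± 0.18 at bud (adjusted p = 0.138).

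For tmem88b the closest genes were AGO1 (r = 0.916), an Argonaute protein, ZNF704 (0.894), a zinc finger protein, fggy (0.885), named for a family of carbohydrate kinases, and CAMSAP2 (0.882), a microtubule minus-end protein in mammals, where 95% of all genes had r below 0.626. AGO1 was at 0.677 and 0.967 RPKM in double morphants, 1.90 and 1.82 RPKM in Gata5 morphants, 1.12 and 1.21 RPKM in Gata6 morphants, and 2.09 and 1.68 RPKM in WT at 6-somites. Like tmem88b, AGO1 was lowest in double morphants at 6-somites (-0.66 ± 0.12 against WT). It was chosen by its r with tmem88b in these same libraries, so this likeness is no separate result. tmem88a and tmem88b had r = -0.24 with each other.

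**Figure D3:**
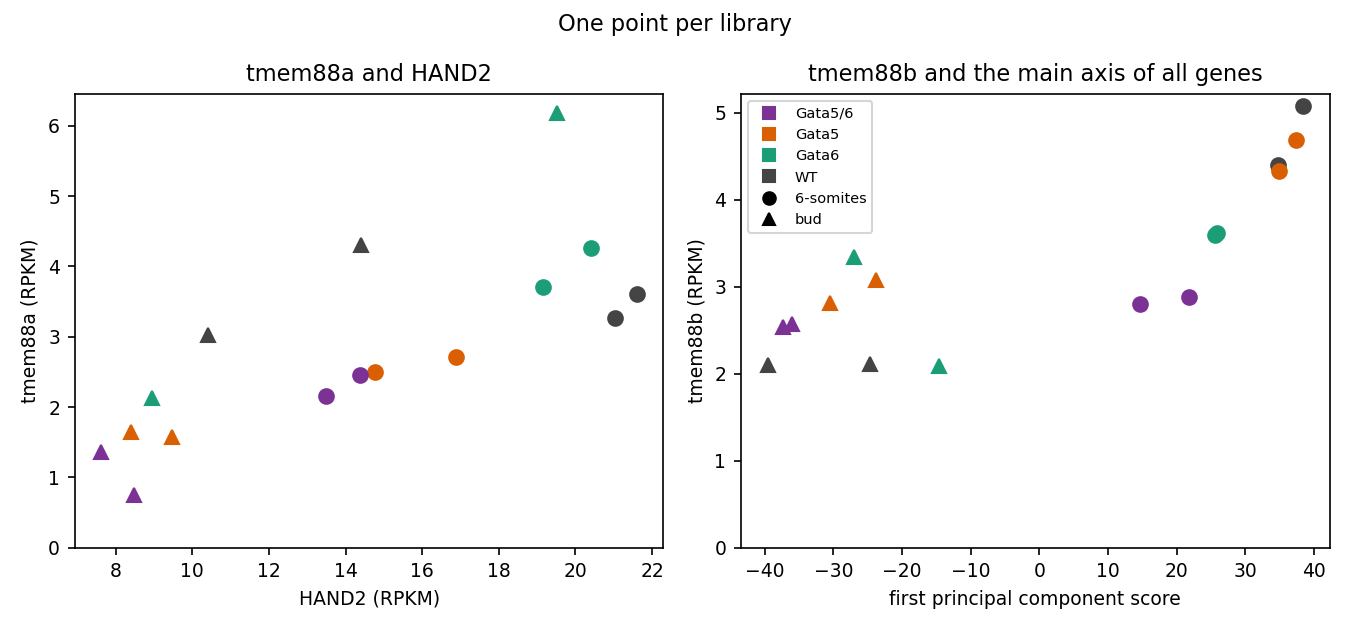
Left, tmem88a against HAND2 in RPKM, and right, tmem88b in RPKM against the score of the first principal component of all genes tested, with 1 point per library, coloured by group and shaped by stage. tmem88a and HAND2 are both lower in libraries with Gata5 morpholino at 6-somites. tmem88b at 6-somites is lowest in double morphants, which also have the lowest first component scores of that stage.

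The first principal component over all genes held 50.5% of the variance and separated the stages. Its scores at 6-somites were 14.6 and 21.8 in double morphants, 34.9 and 37.4 in Gata5 morphants, 25.8 and 25.5 in Gata6 morphants, and 38.4 and 34.7 in WT, against -39.6 to -14.6 at bud. This order of groups was also that of tmem88b at 6-somites, and the part of this axis in the lower tmem88b was not tested. The order of tmem88a at 6-somites was another, with Gata5 morphants below WT in tmem88a at scores of 34.9 and 37.4. At bud, replicate 1 of the Gata6 morphants had the highest score (-14.6) and the highest tmem88a (6.19 RPKM). Replicate 2 of WT had the lowest score (-39.6), with tmem88a at 3.02 RPKM. The part of this axis in the levels of tmem88a was not tested.

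Other gene lists that moved with the groups were measured as well. Summed over 11 identifiers, the p53 response list was at 246 to 271 RPKM in double morphants, 316 to 324 RPKM in Gata5 morphants and 308 to 325 RPKM in Gata6 morphants, and 158 to 169 RPKM in WT at 6-somites. At bud it was at 384 and 212 RPKM in double morphants, 184 and 227 RPKM in Gata5 morphants, 513 and 324 RPKM in Gata6 morphants, and 177 and 215 RPKM in WT. All morphant groups at 6-somites thus had higher p53 sums than WT, beside tmem88a at 67.2% of WT in double morphants, 75.8% in Gata5 morphants and 116% in Gata6 morphants. The part of the p53 response in the differences of either gene was not tested.

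Blood and vascular genes, which arise from the lateral plate mesoderm like the heart, summed over 18 listed identifiers to 52.7 to 68.4 RPKM with Gata5 morpholino and 66.0 to 86.9 RPKM without it at bud. At 6-somites the sum was 136 to 153 RPKM with Gata5 morpholino and 115 to 135 RPKM without it. In that list 3 of 14 tested genes fell with Gata5 morpholino at bud and 0 rose, where 1.55% of all genes fell and 1.18% rose. They were TAL1 (-0.76 ± 0.09), etsrp (-1.09 ± 0.21) and LMO2 (-0.59 ± 0.12), transcriptional regulators of blood and vessel progenitors, named after their values were seen. Their libraries overlapped, with TAL1 at 0.0418 to 0.638 RPKM with Gata5 morpholino and 0.197 to 2.66 RPKM without it. All 3 passed without both libraries with high mdm2 too (TAL1 -0.76, etsrp -0.89, LMO2 -0.59). Against WT at bud, limma called 0 of the 14 in Gata5 morphants, where it called 0.359% of all genes. In Gata6 morphants 3 were higher and 0 lower, where it called 1.63% of all genes. With Gata6 morpholino at bud 3 of the 14 rose and 1 fell, where 1.82% of all genes rose and 1.64% fell. TAL1 (0.48 ± 0.09) and LMO2 (0.61 ± 0.12) were among those that rose, and the highest value of each without Gata5 morpholino was in a Gata6 morphant library. Without both libraries with high mdm2, TAL1 changed by 0.41 and LMO2 by 0.82. The balance of 3 rises and 1 fall did not hold then. Of the list, drl was at -0.41 without these libraries and -0.33 with them, and CEBPA at -0.34 and -0.17. Both were named after their values were seen. At 6-somites limma called 0 of the 14 with Gata5 morpholino, where it called 2.54% of all genes. With Gata6 morpholino 2 of the 14 fell, where 3.32% of all genes fell and 1.59% rose. These were KDR, a receptor for VEGF (-1.18 ± 0.13), and gata1a, a factor of red blood cells (-0.45 ± 0.08). gata1a reached 1 RPKM only in libraries without Gata6 morpholino at 6-somites, so it entered the test only through the side where it was high. In double morphants against WT, KDR fell at bud (-1.62 ± 0.19, limma adjusted p = 0.00156), where 0.827% of all genes fell. The change was -1.63 without both libraries with high mdm2. At 6-somites KDR (-1.52 ± 0.19, adjusted p = 0.00171) and gata1a (-0.69 ± 0.12, adjusted p = 0.0088) fell, where 2.02% of all genes fell. The part of these cells in the levels of tmem88a and tmem88b was not tested.

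Other tissue lists in double morphants against WT at 6-somites had these counts, where 1.78% of all genes rose and 2.02% fell. In the yolk syncytial layer, the nuclei-bearing rim of the yolk, 3 of 9 genes tested rose and 2 fell, in the endoderm 1 of 6 rose and 1 fell, and in the enveloping layer 1 of 12 and in the notochord 1 of 7 rose. The endoderm gene that rose was gata5, a morpholino target that is also counted in the heart field list. limma called 0 of 11 somite genes, 0 of 17 neural plate genes and 0 of 1 cardiac contractile gene. The part of these tissues in the levels of either gene was not tested.

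Heart field genes were described from a list of 23 names, with 22 identifiers listed and 17 tested. In double morphants against WT at 6-somites their median log2 change was -0.15, where the median of all genes was -0.02. Of these 17, 3 fell and 1, gata5, rose, in a comparison in which 2.02% of all genes fell and 1.78% rose. NKX2-5, a cardiac homeobox factor, was at 0.105 and 0.220 RPKM in double morphants, against 1.27 and 1.10 RPKM in WT (-0.91 ± 0.13, adjusted p = 0.00374). It reached 1 RPKM only in the WT libraries at 6-somites, so it entered the test only through the group where it was high. TBX20, a T-box factor of the heart, was at 0.527 and 0.630 RPKM in double morphants, against 2.03 and 2.43 RPKM in WT (-1.03 ± 0.18, adjusted p = 0.00890). mespaa, a factor of early mesoderm, averaged 1.79 ± 0.264 RPKM in the double morphant pair and 4.58 ± 1.09 RPKM in the WT pair (SD, n = 2 each), a change of -0.99 ± 0.24 (limma adjusted p = 0.0483). Each of these fell further than tmem88a, whose change in this comparison was -0.42 and did not pass; the differences between genes were not tested.

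With Gata5 morpholino at 6-somites, NKX2-5 was at 0.105 to 0.491 RPKM, against 0.767 to 1.27 RPKM without it (-0.65 ± 0.09, adjusted p = 0.00501). TBX20 was at 0.527 to 0.945 RPKM with Gata5 morpholino, against 1.41 to 2.43 RPKM without it (-0.70 ± 0.13, adjusted p = 0.0151). NKX2-5 and TBX20 reached 1 RPKM only in libraries without Gata5 morpholino, so both entered the test only through the side where they were high. In both genes, as in tmem88a, every library with Gata5 morpholino was below every library without it, an arrangement seen for 6.26% of all genes at 6-somites. Of the same list, gata5 rose in this contrast. At bud 1 heart field gene fell in double morphants and gata5 rose, where 0.827% of all genes fell and 0.766% rose. It was nkx2.7, another cardiac homeobox factor, at 5.79 and 3.95 RPKM in double morphants, against 15.5 and 9.11 RPKM in WT (-1.16 ± 0.23, adjusted p = 0.0342; -1.38 and adjusted p = 0.0324 without both libraries with high mdm2).

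The genes of the Wnt pathway around TMEM88 were counted in double morphants against WT, where limma called 3.80% of all genes at 6-somites (1.78% higher and 2.02% lower) and 1.59% at bud. Of the ligands, limma called 0 of 14 identifiers at either stage, with median log2 changes of -0.08 at 6-somites and 0.09 at bud. Of the receptors, 1 of 15 rose at 6-somites and 0 were called at bud. It was the Frizzled gene FZD8, at 20.9 and 17.7 RPKM in double morphants, against 11.1 and 11.3 RPKM in WT (0.73 ± 0.15, adjusted p = 0.0230). FZD8 rose with Gata5 morpholino too, with 14.6 to 20.9 RPKM with it and 11.0 to 11.9 RPKM without it at 6-somites (0.58 ± 0.11, adjusted p = 0.0183), where 1.58% of all genes rose and 0.956% fell. Another Frizzled gene, FZD9, fell there, with 5.52 to 8.13 RPKM with it and 8.45 to 10.9 RPKM without it (-0.47 ± 0.11, adjusted p = 0.0486). FZD9 was named after its values were seen. A further tested identifier that also bears the name FZD8 was not called in either comparison.

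Dishevelled, the binding partner of TMEM88, was not called at either stage. dvl2 was at 16.3 and 16.3 RPKM in double morphants, against 15.5 and 15.9 RPKM in WT at 6-somites (0.05 ± 0.13, adjusted p = 0.893). At bud dvl2 averaged 17.2 ± 0.314 RPKM in the double morphant pair and 15.7 ± 1.79 RPKM in the WT pair (0.13 ± 0.13, adjusted p = 0.747). DVL3, the other of the 2 Dishevelled genes tested, had 31.3 and 25.1 RPKM in double morphants, against 28.4 and 22.8 RPKM in WT at 6-somites (0.13 ± 0.15, adjusted p = 0.729). Of 12 identifiers of β-catenin, TCF/LEF and their partners, limma called 0 at either stage.

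In the β-catenin destruction complex 1 of 7 identifiers rose in double morphants at 6-somites, where 1.78% of all genes rose, and 0 were called at bud. It was GSK3A, a kinase that marks β-catenin for degradation, at 29.3 and 26.1 RPKM in double morphants, against 20.4 and 20.3 RPKM in WT (0.42 ± 0.10, adjusted p = 0.0483). Another tested identifier that also bears the name GSK3A was not called in this comparison or with Gata5 morpholino. The identifier called here rose with Gata5 morpholino at both stages. At 6-somites it was at 26.1 to 29.3 RPKM with it and 20.3 to 21.3 RPKM without it (0.43 ± 0.07, adjusted p = 0.0117). At bud it was at 32.7 to 35.4 RPKM with it and 19.2 to 27.4 RPKM without it (0.53 ± 0.07, adjusted p = 0.00468). Its libraries did not overlap at either stage, as for tmem88a but in the other direction, an arrangement seen for 7.46% of all genes at 6-somites and for 2.13% at bud. The bud change was 0.59 without both libraries with high mdm2 (adjusted p = 0.00377).

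Among the other Wnt inhibitors, 1 of 21 rose and 1 fell in double morphants at 6-somites, where 1.78% of all genes rose and 2.02% fell, and 0 were called at bud. frzb, a secreted Wnt antagonist, was at 3.81 and 3.37 RPKM in double morphants, against 1.01 and 1.49 RPKM in WT (1.04 ± 0.15, adjusted p = 0.00347). CXXC5, whose product binds Dishevelled in mammals as TMEM88 does, had 3.89 and 4.08 RPKM in double morphants, 3.97 and 4.47 RPKM in Gata5 morphants, 4.88 and 5.41 RPKM in Gata6 morphants, and 6.21 and 6.22 RPKM in WT. All morphant libraries were thus below WT. Taken group by group, libraries lay wholly below WT for 33.0% of all genes in double morphants, 25.8% in Gata5 morphants and 30.0% in Gata6 morphants. The share for all groups at once was not measured. CXXC5 fell in double morphants by 0.53 ± 0.13 on the log2 scale (adjusted p = 0.0482).

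Joined by morpholino, 2 of the 21 inhibitors rose and 2 fell with Gata5 morpholino at bud, the contrast in which tmem88a fell, where 1.18% of all genes rose and 1.55% fell. dkk1b, a secreted antagonist of LRP receptors, was at 13.0 to 15.3 RPKM with it and 6.38 to 10.2 RPKM without it (0.60 ± 0.11, adjusted p = 0.0170). NKD1, a Dishevelled-binding inhibitor, was at 20.0 to 26.9 RPKM with it and 11.6 to 20.5 RPKM without it (0.55 ± 0.09, adjusted p = 0.0104), with libraries that overlapped. SFRP5, a secreted antagonist, fell by 0.43 ± 0.10 on the log2 scale (adjusted p = 0.0397), and cxxc5b, a paralog of CXXC5, fell by 0.46 ± 0.08 (adjusted p = 0.0154). SFRP5 and cxxc5b were named after their values were seen. Without both libraries with high mdm2, 4 of the 21 rose and 2 fell, where 4.81% of all genes rose and 4.48% fell. The call of SFRP5 was then lost (-0.28, adjusted p = 0.0705), and dkk1b (0.51, adjusted p = 0.00808), NKD1 (0.65, adjusted p = 0.00570) and cxxc5b (-0.45, adjusted p = 0.0146) passed.

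With Gata6 morpholino at 6-somites, the contrast in which tmem88b fell, 2 of the 21 inhibitors fell and 1 rose, where 3.32% of all genes fell and 1.59% rose. SFRP2, a secreted antagonist, was at 3.99 to 5.50 RPKM with it and 6.08 to 7.59 RPKM without it (-0.43 ± 0.10, adjusted p = 0.0331). APCDD1L, of a family of membrane Wnt inhibitors, was at 1.96 to 2.64 RPKM with it and 3.18 to 4.29 RPKM without it (-0.45 ± 0.10, adjusted p = 0.0223). frzb rose (0.59 ± 0.10, adjusted p = 0.00961). Among the ligands 1 of 14 fell, WNT16, at 1.95 to 3.13 RPKM with it and 3.57 to 4.36 RPKM without it (-0.51 ± 0.08, adjusted p = 0.00467). SFRP2, APCDD1L and WNT16 were named after their values were seen. In the same contrast 3 of 7 notochord markers also fell, and their part in the result was not tested. The rise of frzb was not particular to Gata6 morpholino. With Gata5 morpholino at 6-somites frzb rose by 0.45 ± 0.10 on the log2 scale (limma adjusted p = 0.0461), where 1.58% of all genes rose.

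Transcripts that canonical Wnt signalling is known to raise did not pass the test in double morphants. Of 20 identifiers tested, limma called 0 at either stage, with median log2 changes of 0.02 at 6-somites and 0.11 at bud, where the median of all genes was -0.02 at both stages. LEF1 was at 7.47 and 6.91 RPKM in double morphants, against 7.61 and 7.37 RPKM in WT at 6-somites (-0.05 ± 0.15, adjusted p = 0.915). At bud LEF1 was at 9.77 and 10.1 RPKM in double morphants, against 9.75 and 12.8 RPKM in WT (-0.16 ± 0.15, adjusted p = 0.725). axin2 and sp5l were not analysed here. With Gata5 morpholino at bud, 2 of the 20 rose and 0 fell, where 1.18% of all genes rose and 1.55% fell. These were dkk1b and NKD1, which are targets and inhibitors of the pathway at once and are counted in both lists. With Gata6 morpholino at bud 1 of the 20 rose and 0 fell, where 1.82% of all genes rose and 1.64% fell. It was TBXT, a mesodermal T-box factor, at 5.52 to 9.23 RPKM with Gata6 morpholino and 4.05 to 5.34 RPKM without it (0.52 ± 0.13, adjusted p = 0.0489). Without both libraries with high mdm2, TBXT changed by 0.37 and its call was lost. The counts of both bud contrasts were not the same without these libraries, and the balance with Gata6 morpholino did not hold. There cdx4, of the same list, was at -0.56 with Gata6 and 0.31 with Gata5 morpholino. With all libraries cdx4 was at -0.37 and 0.20. TBXT and cdx4 were named after their values were seen. At 6-somites limma called 0 of the 20 with either morpholino, where it called 2.54% of all genes with Gata5 and 4.91% with Gata6 morpholino.

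**Figure D4:**
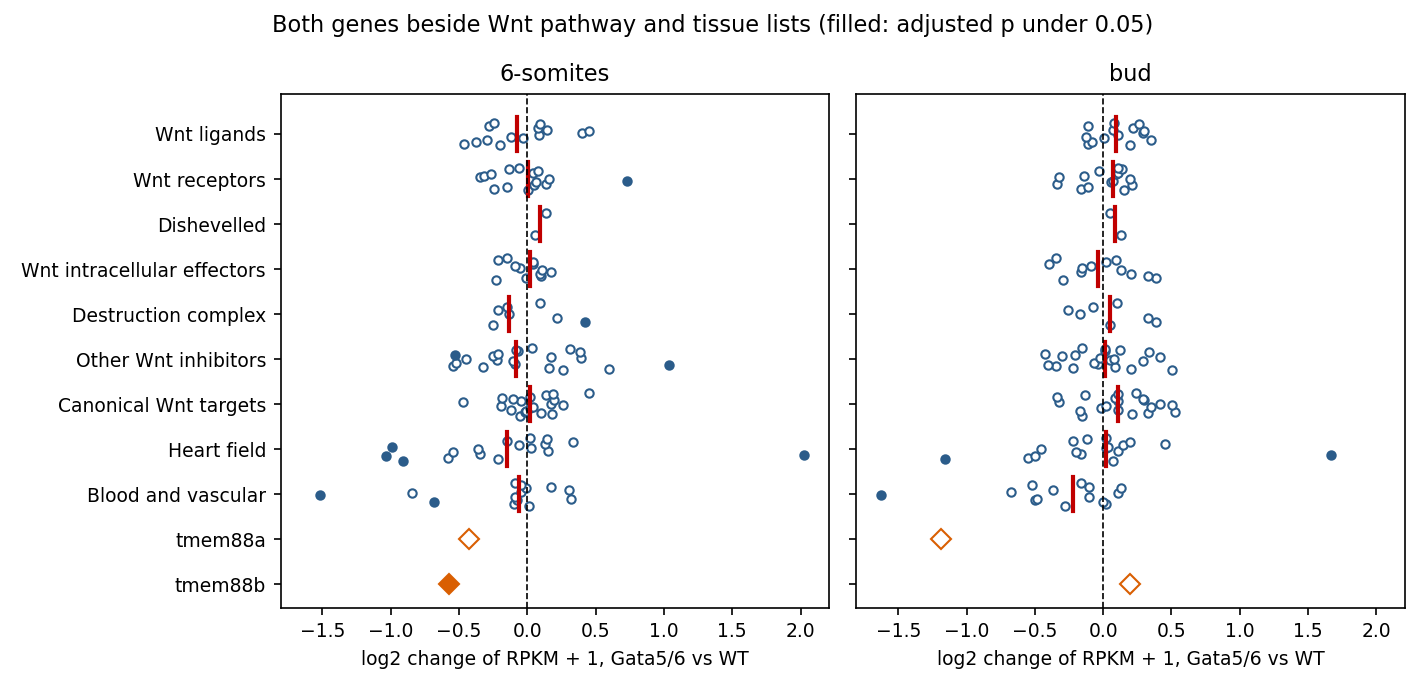
log2 change of RPKM + 1 in double morphants against WT at 6-somites (left) and bud (right), with 1 point per identifier of each list, filled where the adjusted p was under 0.05, and a red bar at the list median. Both TMEM88 genes are drawn as diamonds in the lowest rows. At 6-somites tmem88b (-0.58) is filled, and at bud tmem88a (-1.19) lies beyond all points of the Wnt lists but is not filled.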

How the data were processed

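Each deposited file held RPKM per gene for 1 library, computed by the authors; the column and unit are named per the file headers. Reads were single 36-base reads, per the design text of the series, and the genome build was Zv9, per the submitters' processing notes. For the aligner, the annotation, the counting tool and the use of strand, the answer is not given in the sources used here. Whole reads were recovered from the spacing of RPKM values for 26947 of 27257 genes (98.9%, tolerance 0.01 reads; 99.4% recovered in 500 test values of known counts). They served for depth, counting errors and limma-voom; counting errors do not cover differences between pools.

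The design named limma on log2(RPKM + 1) for RPKM. The 14751 genes that reached 1 RPKM in 2 or more of the 16 libraries were tested with limma 3.58.1 (trend) in R 4.3.3, all 16 libraries in 1 fit with a mean per group (8 residual degrees of freedom), two-sided, with Benjamini-Hochberg adjustment over all genes tested and a threshold of 0.05. The fit was tested on simulated data. The log2(RPKM + 1) scale understates the ratio of weakly expressed genes. Of 26 comparisons, 4 (with against without a morpholino) were added after the values were seen. Comparisons with WT at a stage share the WT libraries.

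The replicate numbers in the titles paired the libraries: same-numbered libraries of a stage deviated together in every pair of groups (correlations of 0.189 to 0.557 at bud and 0.230 to 0.533 at 6-somites), so fits with the replicate number as a block were compared.

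Both genes and the 17 gene lists were chosen with earlier results of these data known. From each list, up to 6 genes called in double morphants against WT at either stage were eligible to be named. Where none was called, the 2 with the smallest p were eligible. Not all eligible genes were named, and others were named from the contrasts by morpholino after their values were seen. From the likeness search, 4 genes were named for each of tmem88a and tmem88b. Names follow the name table matched by gene identifier, which writes some in capitals and gives some duplicated genes a single name, so that copies of a gene are not told apart. No sequence or genome position of either gene is given here.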

Additional observations from a re-analysis of the deposited data

How the results depend on the processing

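Over the results of both genes, 752 values were recomputed under other settings or without 1 library. Of these 725 kept their direction and 687 their side of the threshold. Part of this was fixed in advance. Another filter, or a fit of bud or 6-somites libraries alone, leaves the log2 change of a gene as it is, so its direction could not differ. The call of tmem88a in double morphants over both stages was lost with no filter (-0.81, adjusted p = 0.0671). That of tmem88a with Gata5 morpholino at bud was lost in a fit of that stage alone and with no filter (-1.02, adjusted p = 0.321 and 0.0519). For tmem88b in double morphants against WT at 6-somites it was lost with a filter at 2 RPKM or none (-0.58), voom (-0.71), median-of-ratios scaling (-0.56) and pseudocounts of 0.1 (-0.71) and 0.5 (-0.65). That of tmem88b with Gata6 morpholino at 6-somites was lost with voom (-0.50), this scaling (-0.39) and a pseudocount of 0.1 (-0.51), and that of its stage step in Gata5 morphants with voom (0.43) and scaling (0.34). The causes were not tested.

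Calls were gained for tmem88a in double against Gata6 morphants at bud with voom (-1.83), scaling (-1.24) and pseudocounts of 0.1 (-1.75) and 0.5 (-1.46). In fits of 6-somites libraries alone they were gained for tmem88a in double morphants against Gata6 morphants (-0.59) and WT (-0.42) and with Gata5 morpholino (-0.44), and for tmem88b in double against Gata5 morphants (-0.52). Without both libraries with high mdm2, tmem88a passed for the stage step in Gata5 (0.47) and Gata6 morphants (0.67), against WT in double (-0.97) and Gata5 morphants at bud (-0.82) and over both stages in Gata5 morphants (-0.56), and with Gata5 morpholino at 6-somites (-0.44), and turned to -0.56 in Gata6 morphants against WT at bud. tmem88b then passed in double against Gata5 morphants at 6-somites (-0.52). In Gata6 morphants it was then at 0.48 against WT at bud and at -0.80 for its stage step against that of WT. Values of double or Gata6 morphants at bud in that fit rest on replicate 2 alone.

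Leaving out 1 library at a time gave, for tmem88a, -0.91 to -0.70 in double morphants over both stages, -1.33 to -0.72 with Gata5 and -0.46 to 0.14 with Gata6 morpholino at bud, -1.83 to -0.62 in double against Gata6 morphants at bud, and -0.53 to 0.67 for the stage step in Gata6 morphants. For tmem88b it gave -0.66 to -0.49 in double morphants against WT at 6-somites, -0.46 to -0.37 with Gata6 morpholino, 0.43 to 0.53 and 0.083 to 0.58 for the stage step in Gata5 and Gata6 morphants, -0.0070 to 0.48 in Gata6 morphants against WT at bud, -0.64 to -0.14 for the departure from additivity at bud and -0.80 to -0.31 for the stage step of Gata6 morphants against WT. A left-out library leaves a group of 1, assumed to vary like the others. Comparisons that use neither library with high mdm2 kept their values without them. Only the spread shared by all groups and the adjustment over all genes differed there.

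With the replicate block no call of either gene changed (double morphants at bud, tmem88a -1.19, adjusted p = 0.0670). Counts of called genes moved more widely: those of the 3 morphant groups against WT ranged from 0 to 2637 at bud, where the fit of bud alone called 0 to 6, and from 1 to 2976 at 6-somites, where the fit of 6-somites alone called 928 to 2976. Double against single morphants gave 0 to 2121 genes at bud and 8 to 3022 at 6-somites. With against without a morpholino gave 3 to 1826 at bud and 95 to 3281 at 6-somites, the stage step 799 to 5732, its difference from WT 0 to 949, and the departure from additivity 0 to 989. Voom with TMM factors was not run, and median-of-ratios factors were used in their place, a choice made after seeing the data. Each group holds 2 libraries and each value rests on 37 to 476 reads, which limits these results.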
